A study of Mus musculus with 6 samples.

Results

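The tubulin isotype genes of the developing cortex were taken from the deposited expression table by gene symbol, namely Tuba1a, Tuba1b, Tuba1c and Tuba4a (alpha), Tubb2a, Tubb2b, Tubb3, Tubb4b and Tubb5 (beta), and Tubg1 (gamma). All 10 were found among the 17348 genes of the table, and all 10 passed the filter on low counts, as did 13570 genes in all. The alpha-tubulin and beta-tubulin proteins pair into the dimer that polymerises into microtubules, and gamma-tubulin sits in the ring complex from which microtubules grow. Neurons use this polymer as track and scaffold for migration, axon growth and transport, and vertebrates encode it in several isotype genes whose products differ mainly in their acidic tails. Cells are also known to adjust tubulin mRNA stability to the pool of free dimer, which is the process called tubulin autoregulation.

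The libraries were made from mRNA of mouse cortex at E18.5, 3 from Ybx1 conditional knockout (cKO) embryos and 3 from controls (Ctrl). In the cKO, Cre under the Nestin promoter, which is active in neural progenitors, removes floxed exons of Ybx1, a gene for an RNA-binding protein that reads m5C, so the deletion reaches those progenitors and their descendants. The study designates Nestin-Cre, Ybx1 fl/fl as cKO and Ybx1 fl/fl as Ctrl, whereas the labels call the control genotype WT and the methods call the controls wild type littermates. The floxed line was made in C57BL/6J mice, and a Cre allele alone cannot be told apart from the deletion here because controls without Cre were used.

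Summed estimated counts ran from 15091951 to 16885451 per library. Ybx1 was 1089 ± 182 CPM in Ctrl and 24.6 ± 0.519 CPM in cKO (CPM are counts scaled to the library total, SD, n = 3 each), a log2 fold change of -5.47 (SE 0.164, edgeR quasi-likelihood test, Benjamini-Hochberg adjusted p = 6.95e-07). Ctrl replicate 2 stood apart: its FPKM sum was 1.21 times the mean of the other libraries, and the chi-square per degree of freedom against the other controls was 34.4 to 53.7, beside 8.88 between those controls and 3.09 to 7.61 between cKO libraries. The 4 Y-linked genes Ddx3y, Eif2s3y, Kdm5d and Uty had at least 352 counts in every Ctrl library and at most 22 in any cKO library, so embryo sex and genotype cannot be told apart in any comparison given here. Nothing in the labels says whether a library holds 1 embryo or several.

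The coding ends of 1 alpha and 4 beta members show how alike the isotypes are and where they differ. Each line gives, 5′ to 3′, the last 60 coding bases and the stop codon of the GENCODE M21 transcript (GRCm38) with the final codon before the stop in capitals.
Tuba4a: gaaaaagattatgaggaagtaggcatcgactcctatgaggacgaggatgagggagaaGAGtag
Tubb2a: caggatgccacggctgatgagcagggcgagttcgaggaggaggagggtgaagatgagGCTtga
Tubb2b: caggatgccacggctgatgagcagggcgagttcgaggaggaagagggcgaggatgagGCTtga
Tubb5: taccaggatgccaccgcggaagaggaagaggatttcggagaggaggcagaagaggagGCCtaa
Tubb3: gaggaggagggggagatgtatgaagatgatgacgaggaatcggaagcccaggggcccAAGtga
In Tuba4a the final codon was GAG, which encodes glutamate. Many alpha-tubulins are known to end in a tyrosine instead, the residue that the vasohibins with their partner Svbp remove and that the ligase Ttl puts back. Of the last 20 codons, 10 to 12 encoded an acidic residue in each alpha and beta member and 4 did in Tubg1.

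Tuba1a and Tuba1b were 98.3% identical over the coding sequence. Tubb2a and Tubb2b were 96.5% identical over the coding sequence and 95% over the last 60 bases. Coding identity ran from 84.8% to 98.3% over the 6 alpha pairs, from 81.5% to 96.5% over the 10 beta pairs and from 53.4% to 58.6% over the 29 pairs of different classes. Tubb3, the isotype used as a neuron marker, shared 46.7% of its last 60 bases with Tubb2a but 83.3% of its coding sequence.

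The coding starts are shown because the TTC5 protein recognises nascent tubulin by its first residues during autoregulation. Codons 2 to 4 after the start codon are in capitals.
Tuba1a, Tuba1b, Tuba1c: atgCGTGAGTGC
Tuba4a: atgCGCGAGTGC
Tubb2a: atgCGCGAGATC
Tubb2b: atgCGAGAGATC
Tubb3, Tubb4b: atgAGGGAGATC
Tubb5: atgAGGGAAATC
Tubg1: atgCCGAGAGAA
The first 12 coding bases were thus the same in 3 alpha members and in 1 pair of beta members, Tubb3 and Tubb4b. Codons that differed within a class encode the same residues. The 4 alpha members therefore share their first residues, as do the 5 beta members among themselves. Members with the same encoded start differed in level, Tubb3 and Tubb4b by about an order of magnitude.

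On GRCm38 the Tuba1 genes lie together on chromosome 15, Tuba1b at chr15:98931425-98934565 and Tuba1a at chr15:98949837-98953703 on the minus strand and Tuba1c at chr15:99029891-99038110 on the plus strand. Tubb2a (chr13:34074274-34078007) and Tubb2b (chr13:34126748-34130466) also neighbour each other, both on the minus strand. The other members are single, Tubb5 at chr17:35833921-35838306 (minus), Tubb3 at chr8:123411424-123422015 (plus), Tubb4b at chr2:25222160-25224702 (minus), Tuba4a at chr1:75214228-75219865 (minus) and Tubg1 at chr11:101119938-101126419 (plus). The alpha and beta transcripts used here have 4 exons each and that of Tubg1 has 11.

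Near-identical copies share reads, so the split of counts between them is an estimate. Of all 100-base windows of the transcript, 34.2% in Tuba1a, 27.0% in Tuba1b and 46.6% in Tuba1c occurred in no other annotated gene. The same share was 63.1% in Tubb2a, 72.3% in Tubb2b and 100% in Tubb3 and Tubb5. In Tuba4a 46.7% of windows also occurred in the overlapping annotation of Stk16, and in Tubb4b 27.4% occurred in the pseudogene Tubb4b-ps1. In the deposited estimates, none of the 6 values was a whole number (within 0.005) for any alpha member, 1 of 6 was whole for Tubb2a and for Tubb2b, and 6 of 6 were whole for Tubb3 and Tubb4b, against 89.4% of values over all genes. Values of single Tuba1 and Tubb2 genes are therefore less certain than those of Tubb3, Tubb5 or the class sums, and whether the counting used strand was not given in the sources used here.

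**Figure D1:**
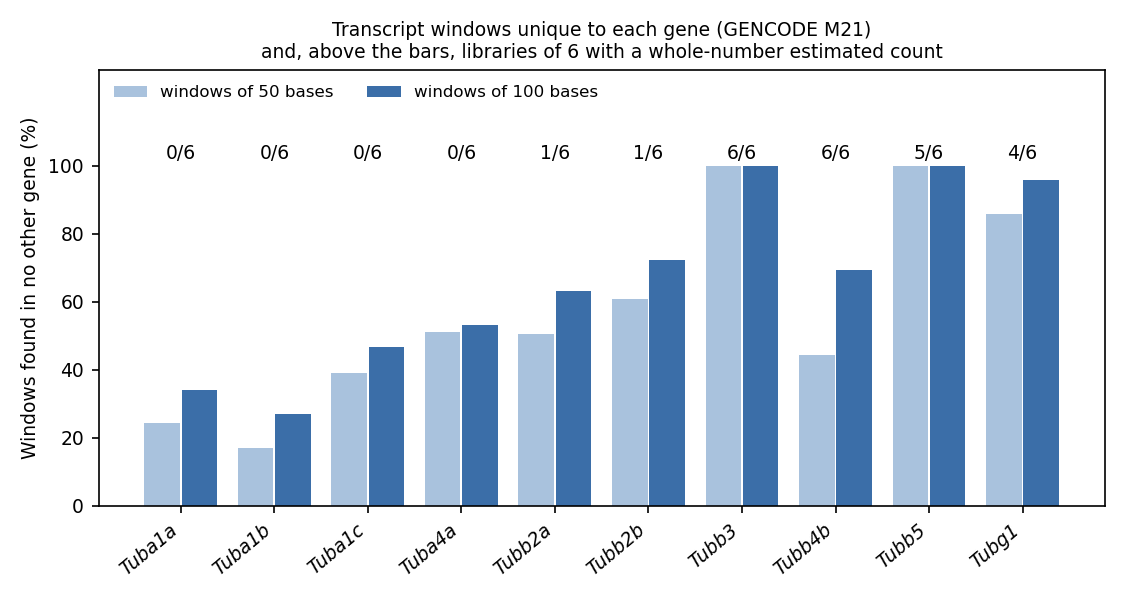
Bars give the percent of 50-base (light) and 100-base (dark) windows of each member's transcript that occur in no other annotated gene, and the fractions above them give how many of 6 libraries had a whole-number estimated count. The Tuba1 genes had the lowest bars, at 27.0% to 46.6% for 100 bases, and Tubb3 and Tubb5 reached 100%.

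Levels between genes were compared in TPM, the authors' unit that divides by transcript length and library total. Tuba1a, the main alpha-tubulin of young neurons, was the most abundant of all genes in every library. Its TPM was 12929.8, 13807 and 12138 in Ctrl and 11209, 11480 and 11189.5 in cKO replicates 1 to 3. All 3 cKO libraries lay below all 3 Ctrl libraries, and the most distant Ctrl value was that of replicate 2.

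Tubb2b, a beta isotype of migrating neurons, followed at 6324, 6492 and 6149 TPM in Ctrl and 4701, 5108 and 4919 TPM in cKO, ranks 4 to 6 of all genes. Tubb5, a beta isotype of progenitors and neurons alike, had 3104, 3423 and 2820 TPM in Ctrl and 2345, 2517 and 2453 TPM in cKO. Neither gene's groups overlapped, the cKO being lower in both. Tubb3 had 2562, 2689 and 2146 TPM in Ctrl and 2129.8, 2342 and 2231 TPM in cKO, with Ctrl replicate 3 inside the cKO range.

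Tubb2a (930.5 ± 163 TPM in Ctrl and 782 ± 13.6 in cKO) and Tuba1b (860.3 ± 116 and 854 ± 21.3) came next. The ranges of these neighbours overlapped in Ctrl, where Tubb2a had the higher mean, and did not overlap in cKO, where Tuba1b was higher. Tubb4b, a broadly expressed isotype, had 210.2 ± 20.4 TPM in Ctrl and 222 ± 11.6 in cKO. Tubg1, the gamma-tubulin, had 54.0 ± 6.78 and 59.8 ± 6.11 TPM. Tuba1c had 18.3 ± 2.16 and 20.2 ± 2.02 TPM, and Tuba4a, an isotype of mature tissues, was lowest at 5.83 ± 1.14 and 8.11 ± 1.64 TPM. Every other pair of neighbours in this order was apart in both groups, although Tubb5 and Tubb3 only just were in cKO, where the lowest Tubb5 value was 2345.5 TPM and the highest Tubb3 value was 2342.2 TPM.

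**Figure D2:**
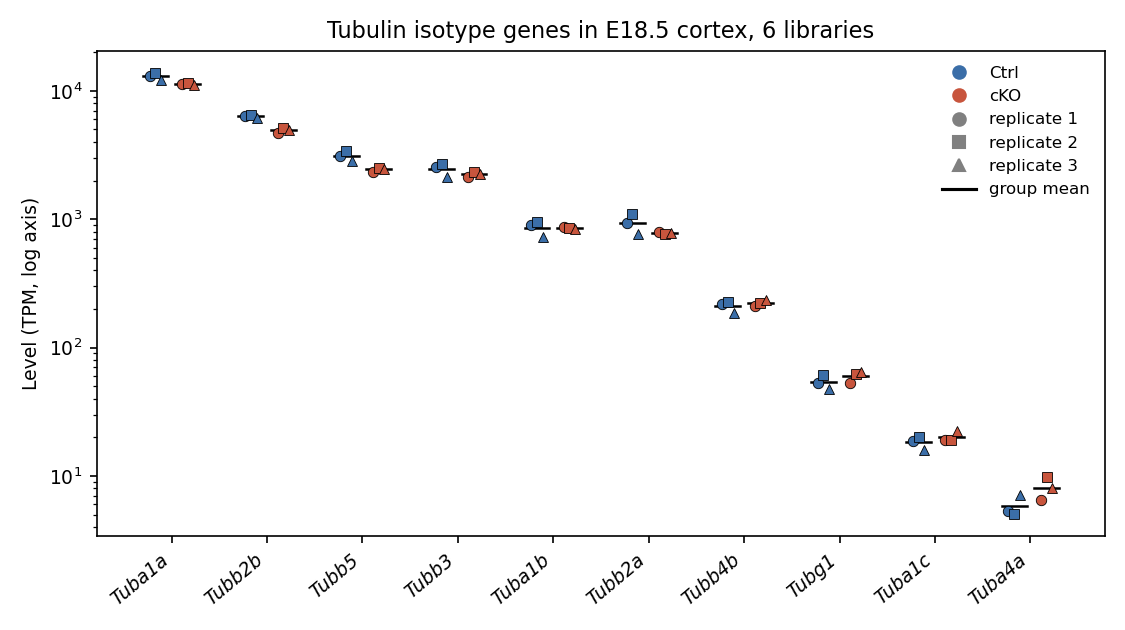
TPM of the 10 members on a log axis in 3 Ctrl (blue) and 3 cKO (red) libraries, with symbols for replicates and a line at each group mean. The order from Tuba1a to Tuba4a spans more than 3 orders of magnitude, and the cKO points lie below all Ctrl points for Tuba1a, Tubb2b and Tubb5.

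Summed over the members, tubulin mRNA took 2.69% ± 0.188 of all TPM in Ctrl and 2.28% ± 0.0526 in cKO (SD, n = 3 each). The sum was 27051, 28765 and 25006 TPM in Ctrl and 22343, 23384 and 22735 TPM in cKO, and the groups did not overlap. Alpha members summed to 13843 ± 947 TPM in Ctrl and 12176 ± 168 in cKO, and beta members to 13044 ± 930 and 10586 ± 388 TPM. Each of these 3 differences had p = 0.1 in an exact two-sided permutation test, the smallest p that 3 against 3 libraries allow, and 0.1 after adjustment over the 3 sums, so none passed 0.05. In CPM, scaled by TMM, the sum was 19165 ± 3122 in Ctrl and 14385 ± 424 in cKO, a log2 ratio of means of -0.41 beside -0.24 in TPM. The members held 98.8% of the alpha and beta TPM of the table in Ctrl and 98.4% in cKO. In bulk tissue, fewer cells of a type and less RNA per cell cannot be told apart.

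The ratio of summed alpha to beta TPM was 1.05, 1.06 and 1.07 in Ctrl and 1.19, 1.13 and 1.13 in cKO. The Ctrl values lay within a narrow band and all cKO values were above it, with a mean of 1.06 ± 0.00699 against 1.15 ± 0.0332 (exact permutation p = 0.1, n = 3 each). Because the ratio is taken within a library, library scaling does not enter it.

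Isotype shares, each member's percent of the summed TPM of its class, show the make-up of the pool. Tuba1a made up 93.6% ± 0.465 of alpha TPM in Ctrl and 92.8% ± 0.155 in cKO. Tuba1b made up 6.20% ± 0.469 and 7.02% ± 0.175. Tuba1c and Tuba4a together stayed under 1% in each library.

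Among beta members Tubb2b had 48.1%, 46.6% and 51.0% of TPM in Ctrl and 46.2%, 46.6% and 46.3% in cKO. The highest cKO value (46.62%) lay just below the lowest Ctrl value (46.64%), so these groups were barely apart. Tubb3 had 19.5%, 19.3% and 17.8% in Ctrl and 20.9%, 21.4% and 21.01% in cKO, all cKO libraries being higher. Tubb5 had a mean of 23.9% ± 0.645 in Ctrl and 23.0% ± 0.0656 in cKO, and Tubb4b 1.61% ± 0.0586 and 2.09% ± 0.0929.

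With estimated counts in place of TPM the Tubb2b groups overlapped (exact permutation p = 0.3), and without Ctrl replicate 3 the difference in its TPM share was -1.002 percentage points in place of -2.19. For Tubb5 the difference of -0.822 points was -0.457 without Ctrl replicate 2.

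Of the 9 shares in TPM, 7 had groups that did not overlap: Tuba1a, Tubb2b and Tubb5 were lower in cKO and Tuba1b, Tuba1c, Tubb3 and Tubb4b were higher. Shares of a class sum to a whole, so these directions are not independent of each other. Tubb2a (7.10% ± 0.747 in Ctrl and 7.39% ± 0.400 in cKO) and Tuba4a overlapped. Each of the 7 had an exact permutation p of 0.1 and an adjusted p of 0.129 over the 9 shares (n = 3 each), and none passed 0.05 in a design that cannot go lower. The Tubb2b to Tubb2a ratio of the neighbouring pair, 6.92 ± 1.05 in Ctrl and 6.29 ± 0.369 in cKO, also overlapped.

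**Figure D3:**
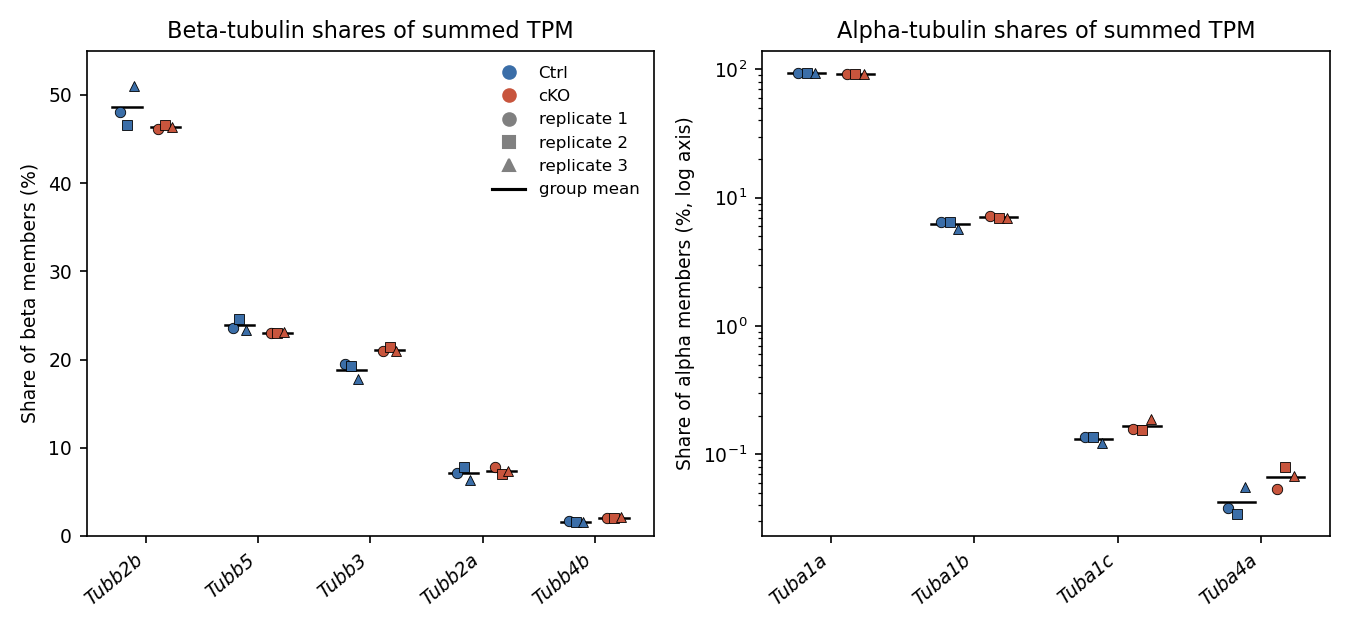
Percent of the summed TPM of the beta members (left, linear axis from 0) and of the alpha members (right, log axis) held by each isotype in each library, with lines at group means. Tubb3 sits at 20.9% to 21.4% in cKO against 17.8% to 19.5% in Ctrl, while the shares of Tubb2a and Tuba4a overlap.

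To compare groups gene by gene, counts were fitted across all 13570 genes tested. At an adjusted p under 0.05, edgeR called 0 of the 10 members, against 10 genes or 0.0737% of all genes tested. At an unadjusted p under 0.05, 4 members were lower (Tuba1a, Tubb2a, Tubb2b and Tubb5) and 0 were higher, where 3.49% of all genes were lower and 3.14% higher. The same 4 members had lower CPM in every cKO library than in any Ctrl library and 0 had higher, where 6.93% of all genes were lower and 7.35% higher in this sense. In TPM the Tubb2a groups overlapped. The median log2 fold change of the members was -0.24, beside 0.0027 over all genes tested. Of the 10 members 9 were below 0, where 6710 of all 13570 genes tested were. Tubb4b, Tuba1c and Tubg1 were near 0, at -0.09, -0.02 and -0.01. DESeq2 called 1 member, Tubb2b, where it called 0.73% of all genes. With the trend on transcript length and GC content removed, edgeR called Tubb2b and Tubb5, where it called 1.12% of all genes. The adjusted call of these members thus depended on the tool and correction.

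Tubb2b and Tubb5 had the lowest log2 fold changes among the members, and their estimates differed by far less than 1 SE. The CPM of Tubb2b was 4659, 5487 and 4364 in Ctrl and 3212, 3521 and 3380 in cKO replicates 1 to 3. The lowest Ctrl library was well above the highest cKO library. The cKO mean was 69.7% of the Ctrl mean, a log2 fold change of -0.52 (SE 0.126, adjusted p = 0.384 in edgeR's quasi-likelihood fit, Benjamini-Hochberg). The adjusted p was 0.00892 with DESeq2, 0.0148 with length and GC trends removed and 0.0512 without Ctrl replicate 2, where the log2 fold change was -0.42. It was 0.782 without Ctrl replicate 1 and 0.986 or more without any 1 cKO library, and over all 15 alternatives it ran from 0.00892 to 0.9999.

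Tubb5 had 3312, 4172 and 2897 CPM in Ctrl and 2322, 2513 and 2437 CPM in cKO. Its groups did not overlap and its cKO mean was 70.0% of the Ctrl mean, a log2 fold change of -0.51 (SE 0.148, edgeR quasi-likelihood, Benjamini-Hochberg adjusted p = 0.482). With length and GC trends removed the adjusted p was 0.0464, which became 0.0537 with the replicate block added. DESeq2 gave 0.0801. Tubb5 shares no 100-base window with another annotated gene, unlike Tubb2b.

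Tuba1a had 7572, 9308 and 6848 CPM in Ctrl and 6084, 6290 and 6120 CPM in cKO, a log2 fold change of -0.36 (SE 0.138, edgeR quasi-likelihood, Benjamini-Hochberg adjusted p = 0.664). The groups did not overlap. Tubb2a had 554, 745 and 437.5 CPM in Ctrl and 436.9, 426 and 433 CPM in cKO, a log2 fold change of -0.42 (SE 0.178, edgeR adjusted p = 0.731). Here the lowest Ctrl value (437.46) and the highest cKO value (436.94) all but touched. In TPM Ctrl replicate 3 of Tubb2a (765.79) lay below every cKO library (767.93 to 795.05). Without Ctrl replicate 2 the log2 fold changes shrank to -0.23 for Tuba1a and -0.20 for Tubb2a.

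Tubb3 had 1673, 2019 and 1351 CPM in Ctrl and 1289.8, 1432 and 1360.1 CPM in cKO. Ctrl replicate 3 lay inside the cKO range, and the log2 fold change was -0.31 (SE 0.153, edgeR adjusted p = 0.795) with all libraries and -0.15 without Ctrl replicate 2. Tuba1b had 516, 628 and 403 CPM in Ctrl and 464, 459.9 and 445 CPM in cKO, and all cKO libraries fell inside the Ctrl range (log2 fold change -0.18, SE 0.158, edgeR adjusted p = 0.865). Without Ctrl replicate 2 the value was -0.0095.

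No difference was detectable for the members with the lowest TPM, Tubb4b, Tubg1, Tuba1c and Tuba4a. Tubb4b is low only beside the other members, with 1549 to 2607 estimated counts per library. The 95% intervals of the log2 fold change ran from -0.36 to 0.19 for Tubb4b, from -0.36 to 0.33 for Tuba1c and from -0.34 to 0.32 for Tubg1, and the estimates of these 3 (-0.09, -0.02 and -0.01) changed sign on the TPM scale, with length and GC trends removed and without Ctrl replicate 2. Tuba4a had 4.39, 4.86 and 5.69 CPM in Ctrl and 4.95, 7.49 and 6.26 CPM in cKO, from 69.8 to 119 estimated counts per library. Its log2 fold change was 0.33 (SE 0.209, edgeR adjusted p = 0.837), and 0.17 without cKO replicate 2, and its groups overlapped.

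Among controls, replicate 2 had the highest CPM and replicate 3 the lowest for 9 of the 10 members, Tuba4a being the exception. The coefficient of variation of the members' CPM ran from 12.04% to 26.8% in Ctrl and from 1.28% to 20.4% in cKO, beside medians over all genes tested of 16.0% and 7.48%. The 4 members with unadjusted p under 0.05 had transcripts of 1610 to 2649 bases with 51.2% to 55.2% GC, and the other 6 had 1598 to 2840 bases with 52.6% to 57.9% GC. On the scale of log2(TPM + 1), the median difference of all genes was 0.14 (cKO minus Ctrl). Relative to that median, Tubb2b differed by -0.51, Tubb5 by -0.49, Tubb2a by -0.38, Tuba1a by -0.34, Tubb3 by -0.28, Tuba1b by -0.14 and Tubb4b by -0.06. Tuba4a differed by 0.27, and Tuba1c and Tubg1 by under 0.01.

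**Figure D4:**
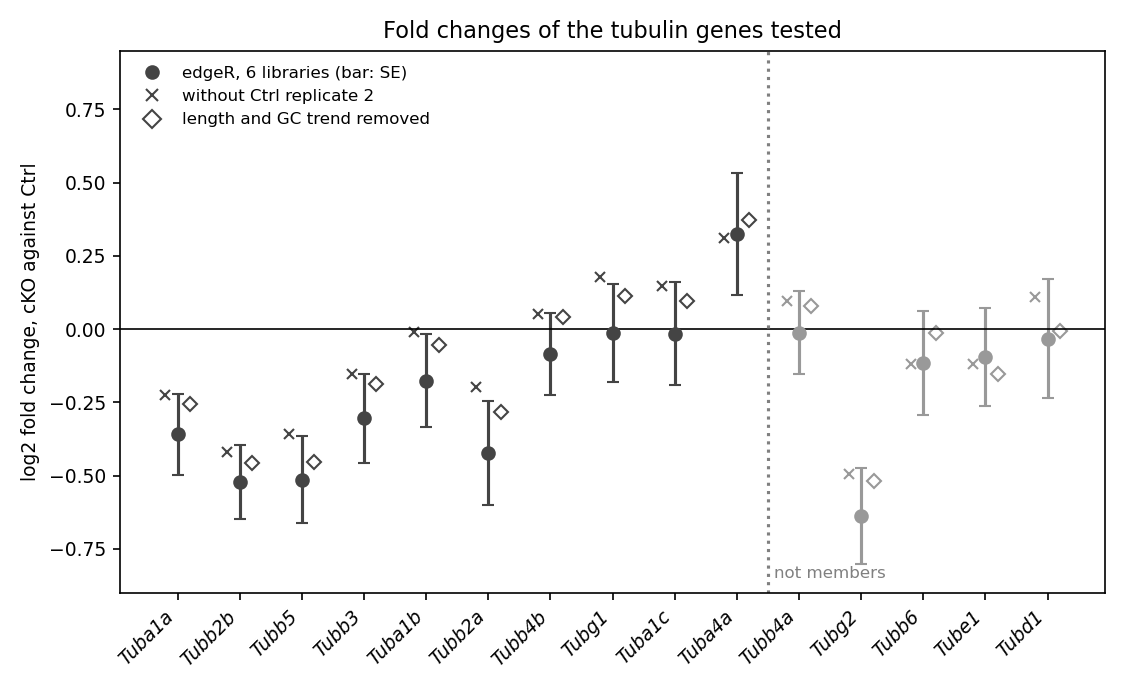
Log2 fold change of cKO against Ctrl for the 15 tubulin genes tested, with circles and SE bars for edgeR on all 6 libraries, crosses without Ctrl replicate 2 and diamonds with length and GC trends removed. Tubb2b and Tubb5 stay between -0.36 and -0.52 under all 3, whereas Tubb4b, Tubg1 and Tuba1c lie near 0 and change sign.

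The table held 9 further tubulin genes. Tubg2, the second gamma-tubulin gene, had 15.6, 20.1 and 15.0 CPM in Ctrl and 9.53, 11.9 and 11.2 CPM in cKO. Its groups did not overlap, and its log2 fold change was -0.64 (SE 0.165, unadjusted p = 0.00383, adjusted p = 0.43 in edgeR's quasi-likelihood fit, Benjamini-Hochberg). With Tubg1 close to level, the Tubg1 share of both gamma genes' TPM was 68.9% ± 1.51 in Ctrl and 77.4% ± 0.928 in cKO (exact permutation p = 0.1, n = 3 each), all cKO libraries being higher.

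Tubb4a, an isotype of the mature brain, had a log2 fold change of -0.01 (SE 0.141). Its share of all beta TPM was 2.45% ± 0.0948 in Ctrl and 3.31% ± 0.198 in cKO, without overlap. Tubb6, Tubd1 (delta) and Tube1 (epsilon) had log2 fold changes of -0.11, -0.03 and -0.10 with SEs of 0.177, 0.202 and 0.167. Tubb1, the platelet isotype, and Tuba8, Tuba3a and Tubal3 had at most 6 counts in any library and were not tested.

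The genes that fold, nucleate, modify and bind tubulin were read from 7 lists with 113 genes, of which 104 were tested, the further tubulin genes included. At an adjusted p under 0.05 edgeR called 0 of them. At an unadjusted p under 0.05 it had 9 lower and 0 higher, where 3.49% of all genes tested were lower and 3.14% higher. The median log2 fold change over all lists was -0.04, with 39 genes above 0 and 65 below. Over all genes tested the median was 0.0027, with 6860 above 0 and 6710 below.

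Of the microtubule-associated and stabilizing proteins 26 were tested, with 2 lower and 0 higher at an unadjusted p under 0.05 and a median log2 fold change of -0.02. Mapt, which encodes tau, the axonal protein that binds along microtubules, had 1672, 1541 and 1569.8 CPM in Ctrl and 905, 1016 and 977 CPM in cKO. The groups were far apart, and Ctrl replicate 2 had the lowest of the Ctrl values, unlike in the tubulin genes. The log2 fold change was -0.72 (SE 0.109, adjusted p = 0.0925 in edgeR's quasi-likelihood fit, Benjamini-Hochberg), which misses 0.05. DESeq2 gave an adjusted p of 1.19e-08 for Mapt and the fit with length and GC trends removed gave 0.00094, both past 0.05. Tppp, which promotes microtubule bundling, had a log2 fold change of -0.45 (SE 0.177) and Map7d2, a kinesin-1 cofactor, one of 0.32 (SE 0.165) that was 0.17 without Ctrl replicate 2, and neither passed the adjusted threshold in any setting.

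Among the tubulin modifying enzymes 19 were tested, with 5 lower and 0 higher at an unadjusted p under 0.05 (Ttl, Svbp, Ttll12, Ttll1 and Atat1, the last 2 named after their values were seen) and a median of -0.08. Ttl, the tubulin tyrosine ligase that restores the terminal tyrosine of alpha-tubulin, had 73.2, 81.7 and 88.7 CPM in Ctrl and 47.7, 57.4 and 55.4 CPM in cKO. All cKO libraries were lower. Its log2 fold change was -0.60 (SE 0.121, edgeR quasi-likelihood, Benjamini-Hochberg adjusted p = 0.214), with adjusted p = 0.00535 in DESeq2 and 0.0259 with length and GC trends removed. Svbp, the partner of the vasohibins that remove that residue, had a log2 fold change of -0.65 (SE 0.223, edgeR adjusted p = 0.60) with overlapping groups, and -0.37 without Ctrl replicate 2. Svbp (chr4:119195306-119201298) ends 76.7 kb from Ybx1 (chr4:119277981-119294604), and any part of the floxed allele in its value was not tested. Ttll12, a member of the ligase family, was at -0.35 (SE 0.144), and at -0.23 without Ctrl replicate 2.

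The prefoldin and tubulin folding cofactors, which deliver and assemble new tubulin, had 13 genes tested, with 1 lower, 0 higher and a median of -0.15. Pfdn5, a prefoldin subunit, had a log2 fold change of -0.46 (SE 0.177, edgeR adjusted p = 0.658), Tbcc one of -0.34 (SE 0.265) and Pfdn6 one of -0.32 (SE 0.178). For Pfdn5 and Pfdn6 no cKO library reached the Ctrl range in CPM, and in TPM this held for Pfdn5 only. Without Ctrl replicate 2 the log2 fold changes were -0.22 for Pfdn5, -0.066 for Pfdn6 and 0.0055 for Tbcc.

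Of the gamma-tubulin ring complex and nucleation genes 21 were tested, with 0 lower and 0 higher at an unadjusted p under 0.05 and a median of 0.0016. Haus5 and Haus8, subunits of the augmin complex, had log2 fold changes of -0.44 (SE 0.193) and -0.34 (SE 0.151), and Mzt2, a small ring complex subunit, -0.43 (SE 0.218). All 3 had overlapping groups, and without Ctrl replicate 2 the values were -0.21, -0.21 and -0.25 for Haus5, Haus8 and Mzt2.

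The microtubule severing and destabilizing proteins had 15 genes tested, 0 of them past the unadjusted threshold in either direction, and a median of -0.09. Stmn3 and Stmn4, stathmins that sequester dimers, had log2 fold changes of -0.29 (SE 0.22) and -0.23 (SE 0.122). In Stmn4 no cKO library reached the Ctrl range in CPM. In TPM its groups overlapped (515.6 to 567.6 in Ctrl and 506.7 to 525.6 in cKO). Without Ctrl replicate 2 the values were 0.032 for Stmn3 and -0.11 for Stmn4.

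The 5 genes of tubulin mRNA autoregulation had a median of -0.08 and none past the unadjusted threshold. Ttc5 had 68.7, 73.7 and 71.0 CPM in Ctrl and 62.8, 63.5 and 61.0 CPM in cKO. The difference was small and without overlap in CPM (log2 fold change -0.19, SE 0.0962, edgeR adjusted p = 0.795). In TPM the Ttc5 groups overlapped (89.5 to 97.6 in Ctrl and 87.6 to 91.4 in cKO). Cnot11, the subunit through which the deadenylase is known to be recruited, was at 0.14 (SE 0.101), and Cnot1, its scaffold, at 0.13 (SE 0.191).

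**Figure D5:**
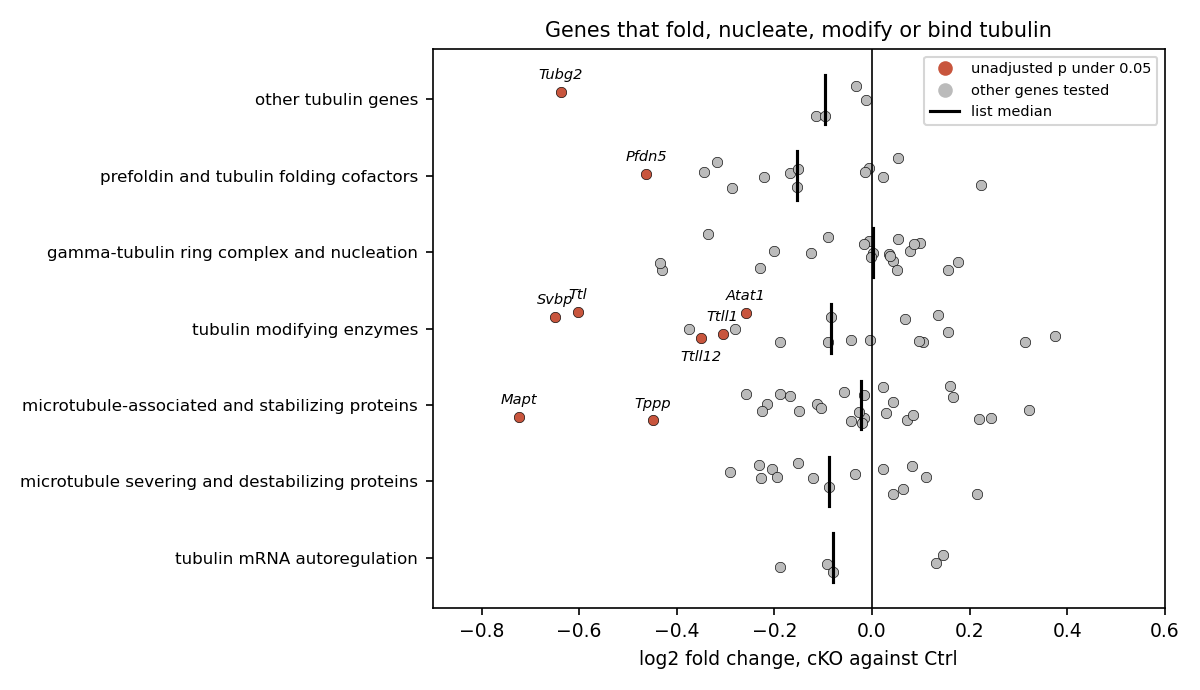
Log2 fold change of cKO against Ctrl for each gene tested in the 7 lists, with red points for an unadjusted p under 0.05 and a black line at each list's median. All 9 red points, Mapt at -0.72 being the farthest, lie left of 0.

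Cell type markers were read beside these values. Neuron, radial glia, intermediate progenitor, dividing cell, interneuron, astrocyte, oligodendrocyte lineage, erythroid and choroid plexus lists had summed TPM whose groups overlapped. The cortical excitatory neuron sum was 2020 to 2808 TPM in Ctrl and 2269 to 2573 TPM in cKO, and the radial glia sum 1492 to 2157 and 1685 to 2021 TPM. Such sums mostly follow their most abundant genes. Neurod6 alone had 849 to 1245 TPM in Ctrl and 937 to 1086 TPM in cKO. Fabp7, of the radial glia list, had 989 to 1549 TPM in Ctrl and 1085 to 1389 TPM in cKO. In the neuron list 2 genes had estimates above 0 and 8 below, and in the radial glia list 4 above and 6 below. The median log2 fold change was -0.09 in both lists. Choroid plexus markers summed to at most 0.8 TPM. The sums of the microglia list (57.9 to 73.2 TPM in Ctrl and 75.2 to 80.9 TPM in cKO, 5 of 7 genes with estimates above 0) and of the endothelial and pericyte list (229 to 265 and 269.8 to 332 TPM, 6 of 7 above 0) were higher in every cKO library. On counts these lists had median log2 fold changes of 0.06 and 0.25, with 0 and 2 genes higher at an unadjusted p under 0.05. On the scale of log2(TPM + 1) all genes had a median difference of 0.14. Of the 77 markers tested, 5 were higher and 1 lower at an unadjusted p under 0.05, beside the shares of all genes given above. Slc17a7, a vesicular glutamate transporter, had 27.5, 22.4 and 29.4 TPM in Ctrl and 49.8, 49.0 and 46.2 TPM in cKO, with every cKO library higher. Its log2 fold change was 0.73 (SE 0.103, adjusted p = 0.0722 in edgeR on the uncorrected counts, 3.73e-06 with DESeq2 and 0.0191 with length and GC trends removed). Pax6, a radial glia transcription factor, had 27.6, 25.7 and 25.2 TPM in Ctrl and 36.7, 35.0 and 37.1 TPM in cKO, also without overlap (log2 fold change 0.31, SE 0.109, edgeR adjusted p = 0.608). Bhlhe22, the 1 lower marker, was at -0.36 (SE 0.117), and the other markers past the unadjusted threshold were Aqp4, Cdh5 and Pdgfrb. Slc17a7 was the only marker past an adjusted p of 0.05 in any fit of all 6 libraries. The part of these markers in the tubulin values was not tested.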

How the data were processed

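Groups and replicate numbers of the 6 libraries came from the labels. The authors' deposited table gives estimated counts, TPM and FPKM per gene and library, plus 6 columns of the authors' group averages, which were not used. The estimated counts deposited by the authors are not normalized. TPM as deposited sums to 1 total in all libraries. FPKM as deposited divides by transcript length and depth. The submitters' processing notes name HISAT2 2.2.1, Bowtie2 2.4.5, RSEM 1.3.1, GRCm38 and mm10, with no role or order. The annotation used and strandedness are not given in the sources used here.

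Estimated counts were rounded. Genes were filtered with filterByExpr (minimum count 10), scaled by TMM and tested between groups by the quasi-likelihood method of edgeR 4.0.16 in R 4.3.3, with Benjamini-Hochberg adjustment over all genes tested. CPM are on the scaled library total, errors are SD, and intervals are 1.96 SEs either side. These intervals use a normal approximation and are narrower than those the quasi-likelihood test would give. Shares and sums of TPM were compared by exact two-sided permutation tests (scipy 1.17.1). Scripts were tested on simulated data. The common biological coefficient of variation was 0.147, and counting error at these depths covers only part of the spread. No pair of libraries agreed within sampling noise. The series' description speaks of biological replicates, but libraries are not tied to embryos, so p-values measure the spread between these libraries, which may be in part technical.

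Sequences, coordinates and the shared windows came from GENCODE M21 (GRCm38), with 1 transcript per member for the sequences. Length and GC content were found for 98.1% of genes tested, and a smooth trend on both was removed with mgcv 1.9.3 in an alternative. Other alternatives were a replicate block, RLE and upper-quartile factors, DESeq2 1.42.0, limma 3.58.1 on log2(TPM + 1), no filter, CPM above 1 in 2 libraries, FPKM or counts in place of TPM for shares, and each library left out.

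The members, the gene lists and the cell type markers were chosen with earlier results of these data known. The genes named were Ybx1, the members, every other tubulin gene of the table and, from each pathway list, genes with an adjusted p under 0.05 and the 3 with the largest absolute log2 fold change among those with a mean of at least 10 CPM. Items withheld for evaluation are not reported here. Figures were drawn with matplotlib 3.10.9.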

Additional observations from a re-analysis of the deposited data

How the results depend on the processing

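edgeR's count of genes past an adjusted p of 0.05 (10) became 99 with DESeq2, 152 with the trend on length and GC content removed and 149 with that and the replicate block, and ran from 8 to 122 with a library left out (122 without Ctrl replicate 2, 19 without Ctrl replicate 3). The count of tubulin members past it, 0, became 1, 2 and 1 in the first 3 of these. The count at an unadjusted p under 0.05, 4, became 2 with limma on log2(TPM + 1) and ran from 2 to 6 with a library left out: 2 without Ctrl replicate 1 or any 1 cKO library, 3 without Ctrl replicate 2 and 6 without Ctrl replicate 3. Over all genes tested this count was 899 and became 1402 with limma on log2(TPM + 1). It was 752 without Ctrl replicate 1, 490 to 605 without 1 cKO library, 1650 without Ctrl replicate 2 and 1914 without Ctrl replicate 3. With length and GC trends removed, the tubulin modifying enzymes and the microtubule-associated proteins each had 1 gene past the adjusted threshold, in place of 0.

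Log2 fold changes that changed sign were mostly near 0. On the TPM scale they were 0.14 for Tuba1c, 0.080 for Tubb4b, 0.15 for Tubg1, 0.14 for Tubb4a, 0.034 for Tubb6, 0.044 for Tubd1 and 0.045 for Tube1, where all genes had a median of 0.14. With length and GC trends removed they were 0.097 for Tuba1c, 0.039 for Tubb4b, 0.11 for Tubg1 and 0.079 for Tubb4a, and with the replicate block added 0.090, 0.039, 0.11 and 0.077. With a library left out they ran from -0.15 to 0.15 for Tuba1c, -0.21 to 0.051 for Tubb4b, -0.14 to 0.18 for Tubg1, -0.12 to 0.097 for Tubb4a, -0.14 to 0.11 for Tubd1, -0.59 to 0.0055 for Tbcc, -0.48 to 0.032 for Stmn3 and -0.079 to 0.25 for Cnot1. For each of these 8 genes the value farthest across 0 was the one without Ctrl replicate 2. The difference in the Tubb2a share (0.295 percentage points) ran from -0.0812, without Ctrl replicate 3, to 0.665, without Ctrl replicate 2. The causes were not tested. Tubb2b and Tubb5 kept their direction and an unadjusted p under 0.05 in all 15 alternatives.

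Libraries with the same number correlated at 0.099, 0.0847 and 0.262 in their deviations from the group means, and others at -0.173 to 0.0567. The series' description speaks of 3 batches of sequencing, but does not say whether the replicate number marks the batch. Each library correlated best with its own number, which is a hint from the data, and since not all 3 were over 0.1 the numbers were not taken to pair the libraries. The replicate block moved the count of genes called to 11, left 0 members called, left Tubb2b as the 1 member called once length and GC trends were removed (adjusted p = 0.0328) and gave Tubg1 a log2 fold change of 0.0024. Depth limits the genes of low level: Tuba4a had 69.8 to 119 counts, and Tubb1, Tuba8, Tuba3a and Tubal3 had too few for a test.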
